A study of Mus musculus with 12 samples.

Results

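Antiviral effector genes of the type I interferon response were compared between dendritic cells (DCs) of alymphoplasia (aly) mice and of their heterozygous littermates. The set comprised Ifit1, Ifit2, Ifit3, Mx1, Mx2, Rsad2 (viperin), Cmpk2, Isg15, Usp18 and Isg20, and its measurements were taken as the probe sets annotated to only 1 of these symbols. Of the 10 genes, 9 had such a probe set, out of 15019 genes tested. The 9 genes were covered by 12 probe sets, 3 for Rsad2, 2 for Cmpk2 and 1 for each other gene, and all 12 passed the filter on low intensity. Isg15 shared its single probe set with a second symbol and is not given a value here.

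The aly mutation lies in Map3k14, which encodes the NF-kappaB-inducing kinase NIK, and aly mice lack lymph nodes and have a disturbed splenic architecture. There were 4 groups: aly mice given LPS, a ligand of the receptor TLR4, and the agonistic anti-CD40 antibody clone FGK4.5; heterozygous littermates, called WT by the submitters, given the same; untreated aly mice; and untreated WT mice. Treated mice received 25 µg LPS and 100 µg antibody by the intraperitoneal route, and DCs were taken 6 h later from the spleen, enriched with CD11c beads and purified by flow sorting. Each group had 3 arrays, each array held DCs pooled from 3 mice, and the mutation was carried by every cell of the animal and not by DCs alone. WT mice carried 1 aly allele, strain, sex and age were not given in the sources used here, and values are array intensities on a linear scale.

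Type I interferons bind the receptor chains IFNAR1 and IFNAR2, whose kinases JAK1 and TYK2 activate transcription factors that include STAT2. STAT2 acts in a complex with IRF9, which binds the interferon-stimulated response element (ISRE) in promoters of antiviral genes. LPS can set off this loop in DCs through TLR4 and IRF3, and IFIT and viperin genes can also be switched on by IRF3 directly.

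Promoters of Ifit1 and Ifit3 are shown because their array values were the most alike of the set. Those of the divergent neighbours Rsad2 and Cmpk2 are shown because their treated aly values differed in order against treated WT. For Rsad2 this order rested on treated aly replicate 1 and on the probe set used, as given below. RefSeq promoter entries (GRCm38.p6, 250 bases before to 50 bases after the start site, 300 bases each) were found for 7 of the 10 genes. Mx1, Mx2 and Usp18 had no entry. The ISRE letters searched were GAAANNGAAA on both strands, and capitals mark each match, which appears as its reverse complement in the sequences below. The Ifit1 promoter lies on the plus strand at chr19:34640639-34640938, that of Ifit3 on the plus strand at chr19:34583279-34583578, that of Rsad2 on the minus strand at chr12:26456403-26456702 and that of Cmpk2 on the plus strand at chr12:26468965-26469264.
Ifit1: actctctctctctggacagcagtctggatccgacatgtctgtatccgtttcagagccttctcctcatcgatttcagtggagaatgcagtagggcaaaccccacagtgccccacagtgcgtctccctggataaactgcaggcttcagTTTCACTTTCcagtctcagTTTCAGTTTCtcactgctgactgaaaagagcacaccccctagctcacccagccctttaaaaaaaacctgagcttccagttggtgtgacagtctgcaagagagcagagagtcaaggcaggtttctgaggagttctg
Ifit3: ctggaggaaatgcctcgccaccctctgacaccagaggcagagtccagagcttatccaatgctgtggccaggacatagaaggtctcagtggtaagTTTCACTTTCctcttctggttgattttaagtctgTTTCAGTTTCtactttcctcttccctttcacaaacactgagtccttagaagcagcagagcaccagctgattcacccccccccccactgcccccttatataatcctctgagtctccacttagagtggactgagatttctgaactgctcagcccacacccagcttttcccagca
Rsad2: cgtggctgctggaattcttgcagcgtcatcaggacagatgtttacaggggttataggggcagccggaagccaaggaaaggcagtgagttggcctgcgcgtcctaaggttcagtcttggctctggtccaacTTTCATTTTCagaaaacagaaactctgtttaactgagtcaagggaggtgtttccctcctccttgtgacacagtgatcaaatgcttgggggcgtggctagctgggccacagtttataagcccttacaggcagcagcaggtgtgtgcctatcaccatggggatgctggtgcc
Cmpk2: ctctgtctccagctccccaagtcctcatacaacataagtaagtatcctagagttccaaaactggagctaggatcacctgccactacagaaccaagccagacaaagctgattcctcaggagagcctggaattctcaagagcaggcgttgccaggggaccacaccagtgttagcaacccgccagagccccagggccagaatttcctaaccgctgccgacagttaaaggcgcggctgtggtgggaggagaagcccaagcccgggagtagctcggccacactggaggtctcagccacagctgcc

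Ifit1 held 2 matches, beginning 104 and 85 bases before the start site. Ifit3 also held 2 matches, at 156 and 122 bases before it. Rsad2 held 1 match, 120 bases before its start site, and these letters did not occur in the Cmpk2 window. Isg15 held 3 matches, which overlapped one another, the first of them 78 bases before the start site. At least 1 match occurred in 4 of the 10 entries of these genes (4 genes), against 3.44% of 32851 promoters of the same length, and at least 2 matches in 3 entries, against 0.225%. The kappaB motif was found in 2 entries, 1 of the 3 of Isg20 and 1 of the 2 of Ifit2, against 8.46% of all promoters. These matches describe letters in a window and say nothing about which factor bound there.

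The arrays differed in ways that bear on what follows. On treated aly replicate 1, the 3' over 5' intensity ratio of Actb, a measure of RNA integrity, was 55.8, against 1.78 to 5.92 on the other aly arrays and 1.39 to 1.94 on WT arrays. The same ratio for Gapdh was 45.7, against 7.10 to 20.7 on the other aly arrays and 4.58 to 8.73 on WT arrays. Its rank correlation with any other array was at most 0.665, whereas every other array reached at least 0.807 with some array. Its hybridisation controls averaged 28530, against 2458 to 5768 on all other arrays. Its highest intensity was 99012.5, against 19467.3 to 52153.4, and its median 53.4, against 21.5 to 39.1. The part of this brighter signal in the high gene values of treated aly replicate 1, such as that of Rsad2, was not tested. Results are therefore given with and without it. Poly-A spike-in signals were 4.39 to 20.4 on the 4 replicate 1 arrays and 48.0 to 442 on replicates 2 and 3, so values within these sets are given as well. Summed red pulp macrophage markers were 23820 to 60480 on treated aly and 2475 to 15450 on treated WT arrays, and 32780 to 50320 on untreated aly and 2018 to 13320 on untreated WT arrays. Summed pan-DC markers were 39410 to 95850 on treated aly arrays and 28860 to 36490 on treated WT arrays, against 51300 to 55220 on untreated aly and 42240 to 48610 on untreated WT arrays. These sums are mostly H2-Aa, H2-Ab1 and Cd74, which macrophages share. Without them the sums were 749.1 to 4438 on treated aly and 1849 to 3822 on treated WT arrays, which overlap. Of the genes left, Itgax (229.7), Flt3 (267.4) and Zbtb46 (44.0) had their lowest values of all 12 arrays on treated aly replicate 1. Ciita did not, with 208.0 there and 122.6 and 128.8 on treated WT replicates 1 and 3. Summed erythroid markers were 507.2 to 3128 on treated aly and 16.7 to 343.2 on treated WT arrays, and 782.8 to 2321 on untreated aly and 28.5 to 208.0 on untreated WT arrays. The neutrophil sum was 11640 on treated aly replicate 1 and at most 2549 on any other array. S100a8 (4160.5) and S100a9 (7325.3) made up most of it. Mmp8 (25.2) and Csf3r (125.6) lay within the range of the other arrays (3.6 to 26.9 and 25.2 to 224.0).

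In aly DCs, LPS with anti-CD40 raised 1 of the 9 genes by the test, Ifit1, and the treatment differences ran from 0.26 to 2.88 on the log2 scale with a median of 1.89. In WT DCs it raised all 9 genes, by 2.77 to 4.94 with a median of 3.51. A gene was called at an adjusted limma p under 0.05 over all genes of the contrast, and this holds for all adjusted p-values below, with log2 taken after adding 16 to each intensity. Called higher genes made up 0.453% of all genes in aly and 4.95% in WT, so 1 of 9 and 9 of 9 compare with these. The median difference over all genes was -0.08 in aly and -0.12 in WT. An unadjusted p under 0.05 was reached by 7 of 9 genes in aly, the called gene among them, and by 1935 of all 15019 genes. Markers of the conventional DC subset cDC1 moved with treatment as well: none of 5 measured was called lower by limma in aly (median log2 difference -1.63, 0.0333% of all genes called lower) and 4 of 5 were in WT (median -3.01, 4.75% of all genes). Summed cDC1 markers were 1646 to 6080 on treated aly and 2078 to 5104 on treated WT arrays, against 10530 to 12120 on untreated aly and 6939 to 13490 on untreated WT arrays, and their part in the response was not tested. In bulk arrays, fewer responding cells and a weaker response per cell cannot be told apart.

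**Figure D1:**
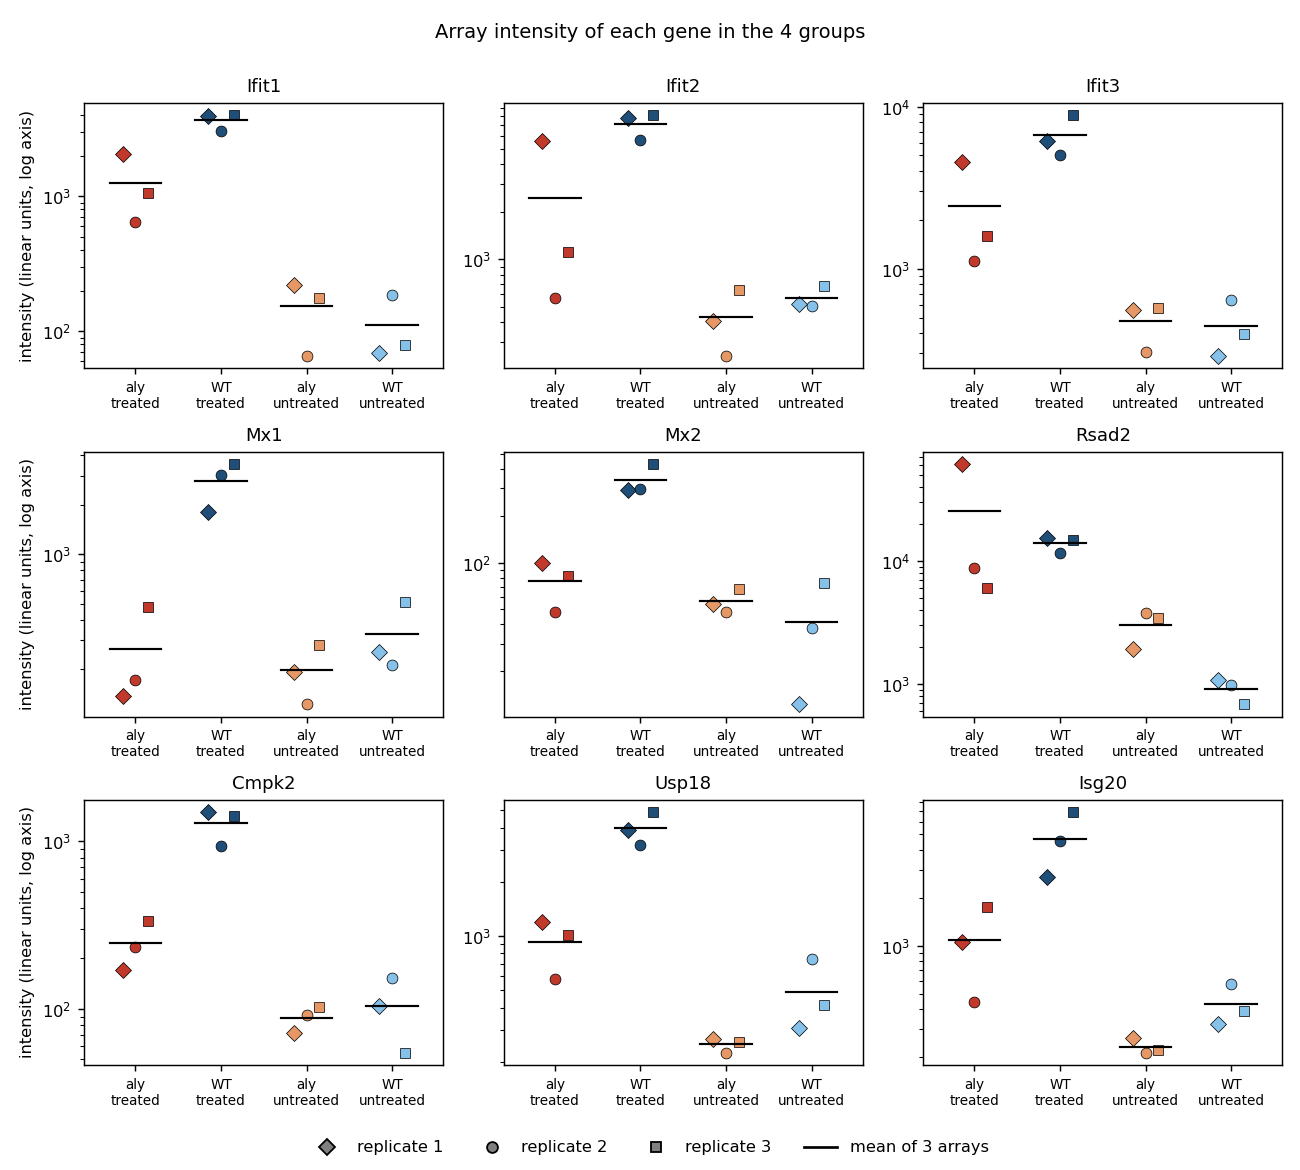
Array intensity of the 9 genes (linear units on a log axis), with 1 point per array and a line at the mean of 3 arrays, in treated aly, treated WT, untreated aly and untreated WT DCs. For Mx1 the 3 treated aly arrays sit between 137.8 and 481.3, below all treated WT arrays (1806 to 3565) and within reach of the untreated arrays.

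The IFIT proteins bind viral RNA and hinder its translation. Ifit1, which recognises RNA ends that lack host cap methylation, read 2072, 649 and 1061 on the 3 treated aly arrays and 3932, 3059 and 3994 on treated WT arrays, against 220.9, 65.6 and 177.8 on untreated aly arrays and 69.6, 187.5 and 79.9 on untreated WT arrays. All treated arrays lay above all untreated arrays in both genotypes, and all treated aly arrays lay below all treated WT arrays. Its difference was 2.88 ± 0.50 in aly (SE of the fit, n = 3 arrays per group, adjusted p = 0.0176) and 4.94 ± 0.50 in WT (adjusted p = 1.27e-05). The aly call was lost without untreated aly replicate 2 (adjusted p = 0.0991) or 3 (adjusted p = 0.0656), and held without treated aly replicate 1 (log2 difference 2.45, adjusted p = 0.0295).

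Ifit2, which binds AU-rich RNA, read 5598, 567 and 1107 on treated aly arrays and 7765, 5624 and 8121 on treated WT arrays, against 410.1, 245.1 and 639.7 on untreated aly and 521.8, 509.0 and 674.0 on untreated WT arrays. Treated aly replicate 1 alone came close to the treated WT arrays, and replicate 2 fell inside the range of untreated aly arrays. Its difference was 1.89 ± 0.61 in aly (adjusted p = 0.263) and 3.61 ± 0.61 in WT (adjusted p = 0.00133). The aly value was 0.95 once treated aly replicate 1 was left out.

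Ifit3, the partner that steadies IFIT complexes, read 4581, 1111 and 1584 on treated aly arrays and 6180, 5054 and 8865 on treated WT arrays, against 556.0, 304.6 and 573.0 on untreated aly and 289.0, 643.2 and 394.4 on untreated WT arrays. Treated arrays did not overlap untreated ones in either genotype. The difference was 2.09 ± 0.50 in aly (adjusted p = 0.0848) and 3.91 ± 0.50 in WT (adjusted p = 9.79e-05). A share of this signal from the near-identical copy Ifit3b was not tested.

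The Mx proteins are dynamin-like GTPases that block viruses, Mx1 in the nucleus and Mx2 in the cytoplasm of mice, and many laboratory strains carry defective copies. RefSeq annotates both genes on chromosome 16 of GRCm38.p6 as transcribed pseudogenes. Mx1 read 137.8, 173.1 and 481.3 on treated aly arrays and 1806, 3031 and 3565 on treated WT arrays, against 191.5, 122.3 and 279.5 on untreated aly and 254.2, 212.9 and 512.6 on untreated WT arrays. Treated aly, untreated aly and untreated WT arrays overlapped, and only the treated WT arrays stood above them. The difference was 0.26 ± 0.49 in aly (adjusted p = 0.847, 95% interval -0.78 to 1.30) and 3.08 ± 0.49 in WT (adjusted p = 0.000778).

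Mx2 read 99.1, 48.4 and 82.2 on treated aly arrays and 292.4, 296.2 and 433.8 on treated WT arrays, against 54.4, 48.2 and 67.4 on untreated aly and 12.2, 37.8 and 73.8 on untreated WT arrays. The pattern was that of Mx1, with overlap among all groups but treated WT. Its difference was 0.32 ± 0.42 in aly (adjusted p = 0.766, 95% interval -0.58 to 1.21) and 2.77 ± 0.42 in WT (adjusted p = 0.000502). The Mx genes had the smallest aly differences of the 9, at 8.33% (Mx1) and 11.4% (Mx2) of the WT log2 difference, as a description. Cmpk2 stood at 36.8% and the other 6 genes between 52.2% and 59.4%, the last being Rsad2 on the probe set used in the fit. The order of these 7 rested on treated aly replicate 1. Without it Ifit2 stood at 26.4%, Rsad2 at 33.1%, Ifit3 at 38.3%, Cmpk2 at 43.1%, Ifit1 at 49.5%, Usp18 at 51.1% and Isg20 at 56.0%, with Mx1 at 19.1% and Mx2 at 5.02%. Leaving out treated aly replicate 3 turned the Mx1 value in aly to -0.26.

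Viperin, encoded by Rsad2, turns CTP into a chain-terminating nucleotide, and Cmpk2 is a mitochondrial kinase that supplies CTP. The genes are neighbours on chromosome 12. The Rsad2 probe set used in the fit read 61960, 8739 and 6002 on treated aly arrays and 15371, 11716 and 14934 on treated WT arrays, against 1930, 3754 and 3473 on untreated aly and 1088, 983 and 684 on untreated WT arrays. Treated aly replicate 1 had the highest value of all 12 arrays, the other treated aly arrays lay below all treated WT arrays, and untreated aly arrays lay above all untreated WT arrays. The treatment difference was 2.33 ± 0.63 in aly (adjusted p = 0.156) and 3.92 ± 0.63 in WT (adjusted p = 0.000869), and the aly value was 1.30 without replicate 1.

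The other Rsad2 probe sets had treatment differences of the same sign that differed in size. On 1421008_at the difference was 1.85 ± 0.46 in aly (adjusted p = 0.117) and 4.60 ± 0.46 in WT (adjusted p = 9.12e-06). On 1421009_at it was 2.51 ± 0.57 in aly (adjusted p = 0.08) and 4.76 ± 0.57 in WT (adjusted p = 5.21e-05). The share of the WT difference seen in aly thus depended on the probe set. Probe set 1421008_at read 455.9, 156.7 and 157.5 on treated aly arrays and 957, 1017 and 737 on treated WT arrays, against 24.7, 58.6 and 83.0 on untreated aly and 15.8, 14.3 and 38.6 on untreated WT arrays. Probe set 1421009_at read 7656, 1526 and 853.5 on treated aly arrays and 3492, 3709 and 3036 on treated WT arrays, against 267.5, 469.7 and 385.9 on untreated aly and 115.8, 120.7 and 96.3 on untreated WT arrays. On 1421008_at no treated aly array reached the treated WT arrays, whereas on 1421009_at replicate 1 exceeded them.

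Cmpk2 read 170.5, 234.0 and 333.7 on treated aly arrays and 1500, 939 and 1425 on treated WT arrays, against 71.9, 91.6 and 102.2 on untreated aly and 103.4, 152.9 and 54.6 on untreated WT arrays. Treated arrays lay above untreated ones in both genotypes, and the treated aly arrays lay far below the treated WT arrays. The difference was 1.29 ± 0.40 in aly (adjusted p = 0.236) and 3.51 ± 0.40 in WT (adjusted p = 3.58e-05). Its dimmer probe set, 1422095_a_at, read 348.8, 19.2 and 5.8 on treated aly arrays and 55.5, 40.5 and 54.9 on treated WT arrays, against 13.3, 16.5 and 71.3 on untreated aly and 6.7, 4.2 and 10.8 on untreated WT arrays. That probe set passed no test in either genotype (adjusted p = 0.769 in aly and 0.257 in WT).

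**Figure D2:**
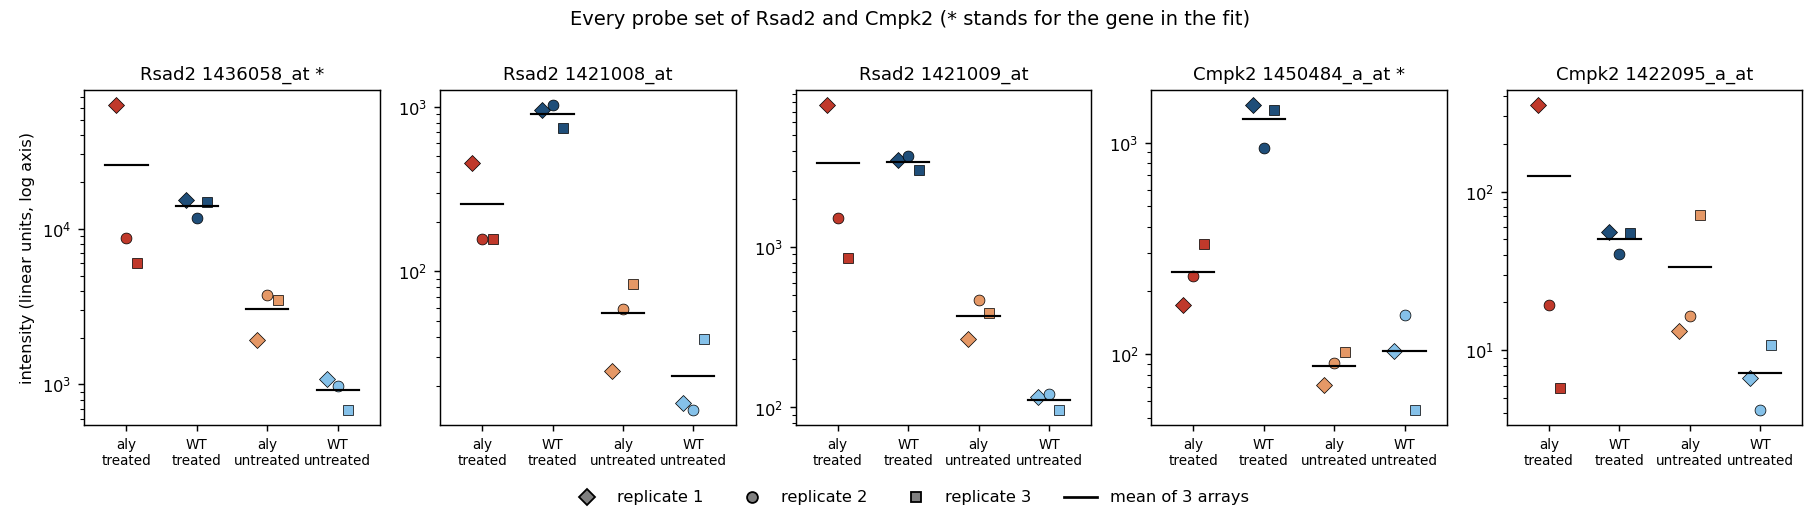
Array intensity (linear units on a log axis) of the 3 Rsad2 and 2 Cmpk2 probe sets, 1 point per array with a line at the mean of 3 arrays, in treated aly, treated WT, untreated aly and untreated WT DCs. Treated aly replicate 1 is the highest treated aly array on every probe set but 1450484_a_at, which stands for Cmpk2 in the fit.

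Usp18 removes ISG15 from proteins and restrains the type I interferon receptor. It read 1196, 579 and 1018 on treated aly arrays and 3874, 3207 and 4896 on treated WT arrays, against 266.9, 224.0 and 258.2 on untreated aly and 307.4, 745.5 and 412.6 on untreated WT arrays. The aly arrays lay below the WT arrays under both conditions, and treated arrays lay above untreated arrays within each genotype. The difference was 1.77 ± 0.40 in aly (adjusted p = 0.0673) and 3.06 ± 0.40 in WT (adjusted p = 0.000119).

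Isg20 encodes an RNA exonuclease. It read 1052, 446 and 1762 on treated aly arrays and 2685, 4523 and 6917 on treated WT arrays, against 262.3, 212.5 and 221.2 on untreated aly and 322.1, 579.0 and 387.3 on untreated WT arrays. Like Usp18, its arrays of the genotypes did not overlap under either condition. The difference was 1.95 ± 0.48 in aly (adjusted p = 0.0948) and 3.34 ± 0.48 in WT (adjusted p = 0.000287).

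**Figure D3:**
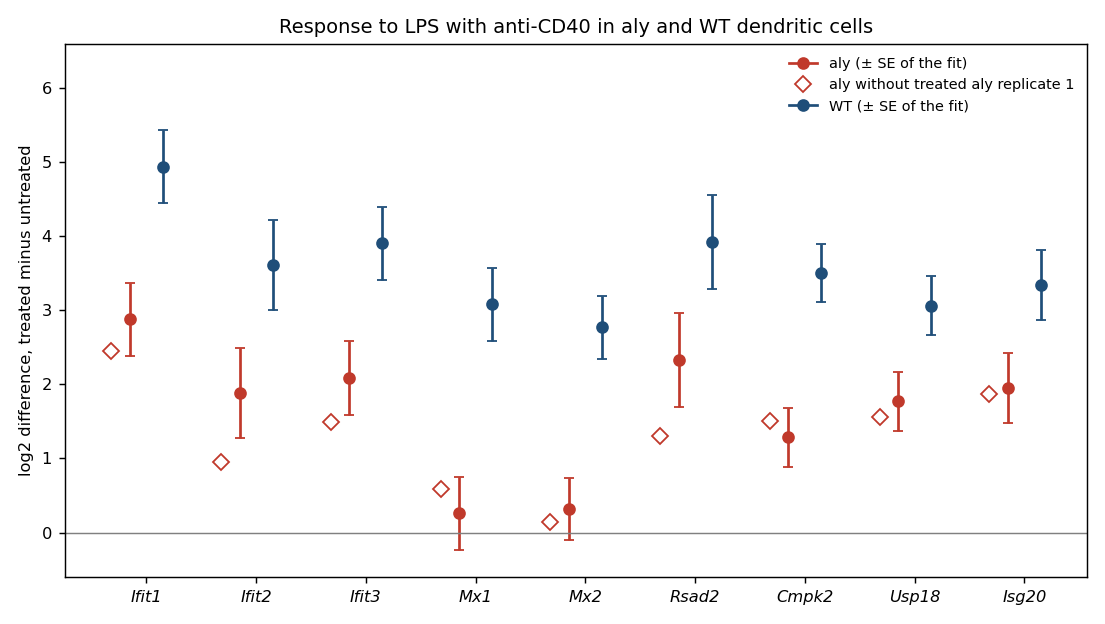
Treatment difference (log2, treated minus untreated) of the 9 genes in aly and WT DCs, with bars of ± 1 SE of the fit and open diamonds for aly without treated aly replicate 1. The aly values lie between 0.26 and 2.88, each below its WT value, and the WT values between 2.77 and 4.94.

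All treated arrays lay above all untreated arrays for 6 of 9 genes in aly, where 6.02% of all genes did so, and for 9 of 9 in WT, where 14.3% did. Ifit2, Mx1 and Mx2 were the exceptions in aly. Without treated aly replicate 1, 6 of 9 genes again lay above all untreated aly arrays (9.25% of all genes), and the median aly difference was 1.496. The count of calls in aly stayed at 1 without that array, with 0.366% of all genes called higher. Within replicate 1 the median difference was 2.10 in aly and 3.67 in WT, and within replicates 2 and 3 it was 1.39 in aly and 3.49 in WT.

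Among treated mice, aly DCs had lower values than WT DCs for 8 of the 9 genes, and Rsad2 was the exception. The 6 that passed the test were Mx1, Cmpk2, Usp18, Isg20, Ifit2 and Mx2, where 2.64% of all genes were called lower. The median difference of the 9 was -2.12, against 0.19 over all genes. For 8 genes all treated aly arrays lay below all treated WT arrays, as did 10.1% of all genes. Mx1 differed by -3.48 ± 0.49 (adjusted p = 0.00172), and its call was the only 1 of the 6 that held under each of the alternative settings and left-out arrays tried.

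Cmpk2 differed by -2.33 ± 0.40 (adjusted p = 0.00502) and Usp18 by -2.12 ± 0.40 (adjusted p = 0.00824). On the dimmer Cmpk2 probe set 1422095_a_at the difference was -0.011 ± 0.735 (adjusted p = 0.995). Mx2 differed by -1.96 ± 0.42 (adjusted p = 0.0156) and Isg20 by -2.20 ± 0.48 (adjusted p = 0.0167). Ifit2 differed by -2.20 ± 0.61 (adjusted p = 0.0477), a call that was lost in 16 of 27 settings. Ifit3 (-1.69 ± 0.50, adjusted p = 0.0585) and Ifit1 (-1.67 ± 0.50, adjusted p = 0.0613) missed the threshold although their treated arrays did not overlap. Rsad2 differed by 0.09 ± 0.63 (adjusted p = 0.944), with a 95% interval of -1.25 to 1.43 that leaves room for a clear difference either way. Its sign turned under median centring (-0.26), quantile normalization (-0.58) and without treated aly replicate 1 (-0.94), and on the probe set 1421008_at the difference was -1.91 ± 0.46 (adjusted p = 0.0269).

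**Figure D4:**
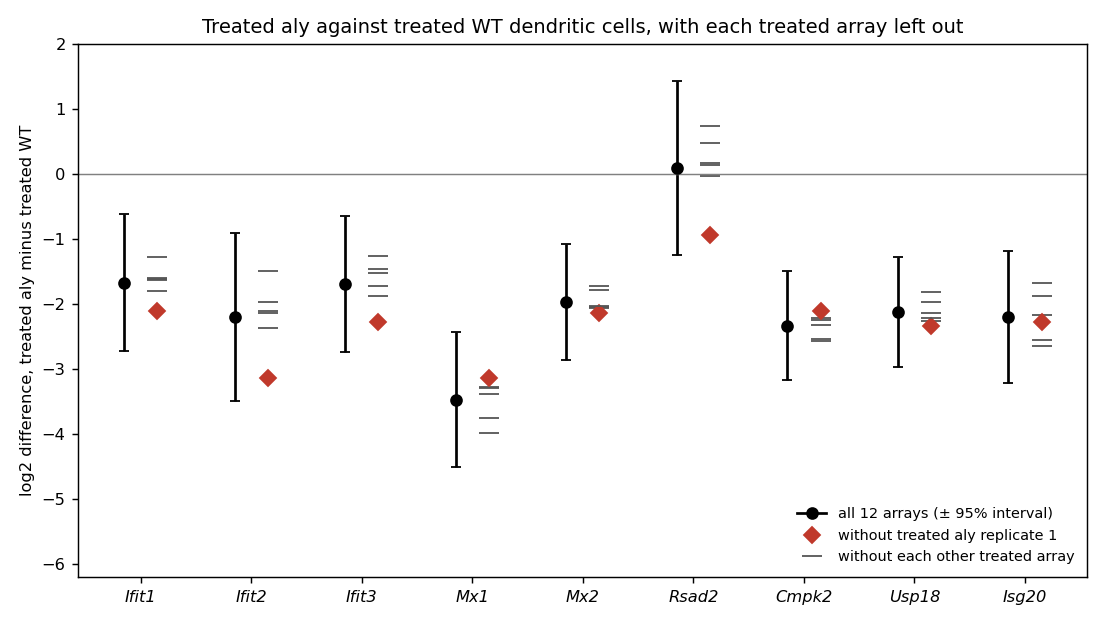
Difference between treated aly and treated WT DCs (log2) for the 9 genes, with 95% intervals of the fit over all 12 arrays, diamonds for the value without treated aly replicate 1 and dashes for the value without each other treated array. Rsad2 moves from 0.09 to -0.94 when treated aly replicate 1 is left out, and the other 8 genes stay below 0 throughout.

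Without treated aly replicate 1, 8 genes were called lower in treated aly DCs (2.98% of all genes) and Rsad2 was not (adjusted p = 0.151). All 9 genes then lay below every treated WT array, as did 15.2% of all genes. This array held the highest of the treated aly values for 6 of the 9 genes and 9 of the 12 probe sets. Within replicate 1 the median difference was -1.34, and within replicates 2 and 3 it was -2.32. Median centring put the all-gene median of this contrast at -0.16 in place of 0.19, and 8 of 9 genes were then called lower, where 2.82% of all genes were. Red pulp macrophage markers were called higher in treated aly DCs for 4 of 10 genes and erythroid markers for 2 of 4, where 2.74% of all genes were called higher. Of the monocyte markers, Csf1r, which macrophages share, made up most of the sum (9569 to 14350 on treated aly and 529.3 to 4526 on treated WT arrays), and the other 4 summed to 213.3 to 317.8 on treated aly and 64 to 266.3 on treated WT arrays. Plasmacytoid DC marker sums were 565.0 to 837.7 on treated aly and 841.0 to 1273 on treated WT arrays. Tcf4 alone gave that order, and the other 6 summed to 308.9 to 598.5 on treated aly and 162.5 to 342.1 on treated WT arrays. Markers of the conventional DC subset cDC2 were called lower in treated aly DCs for 2 of 5 genes, where 2.64% of all genes were. None was called higher, although 3 of the 5 differences were above 0. No marker of these lists was at 0, but some lay far below the array medians, such as Siglech (2.8 on treated WT replicates 2 and 3). The part of other cells in the differences was not tested.

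Without treatment, none of the 9 genes passed the test between aly and WT DCs by limma, with 0.553% of all genes called in either direction. Of all 15019 genes, 1570 had an unadjusted p under 0.05, a share close to that of the set, where 1 of the 9 genes did. That gene was Rsad2, at 1.68 ± 0.63 (adjusted p = 0.333), higher on all untreated aly arrays. Its probe set 1421009_at gave 1.59 ± 0.57 (adjusted p = 0.317) with no overlap either, and 1421008_at gave 0.84 ± 0.46 (adjusted p = 0.571) with overlapping arrays. Without treated aly replicate 1, which adds to the shared estimate of spread, the untreated Rsad2 difference stayed at 1.68 and passed the test (adjusted p = 0.0153, 2.64% of all genes called). Usp18 (-0.83 ± 0.40, adjusted p = 0.485) and Isg20 (-0.81 ± 0.48, adjusted p = 0.590) read lower on every untreated aly array without passing the test. Untreated arrays of the other 6 genes overlapped. The share of all genes without overlap was not counted for this contrast, so the separations of Rsad2, Usp18 and Isg20 are a description only. Red pulp macrophage markers passed the test as higher in untreated aly DCs for 6 of 10 genes and erythroid markers for 2 of 4, where 0.499% of all genes were called higher, and their part in the Rsad2 values was not tested.

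The interaction asked whether the aly response differed from the WT response. All 9 differences, aly response minus WT response, were below 0, from -1.29 to -2.83 with a median of -1.82 against 0.04 over all genes, yet none passed the test by limma (0.153% of all genes called lower). An unadjusted p under 0.05 was reached by 6 of the 9, and by 1204 of all 15019 genes. Mx1 had -2.83 ± 0.69 (adjusted p = 0.188), Mx2 -2.45 ± 0.60 (adjusted p = 0.188) and Cmpk2 -2.22 ± 0.56 (adjusted p = 0.204). The values were -2.06 for Ifit1, -1.82 for Ifit3, -1.73 for Ifit2, -1.59 for Rsad2, -1.39 for Isg20 and -1.29 for Usp18, with adjusted p-values of 0.411 to 0.703. Without treated aly replicate 1, Ifit2 (-2.66, adjusted p = 0.0351), Mx2 (-2.63, adjusted p = 0.0447) and Rsad2 (-2.62, adjusted p = 0.0241) passed it, with 0.639% of all genes called lower. The median interaction was -1.49 within replicate 1 and -2.06 within replicates 2 and 3. Within replicate 1, Rsad2 alone had a positive value, 1.19, on the probe set used in the fit. Within replicates 2 and 3 that probe set had -2.98. The other Rsad2 probe sets had larger interactions over all arrays by limma. These were -2.75 ± 0.65 on 1421008_at (unadjusted p = 0.000557, adjusted p = 0.166) and -2.24 ± 0.81 on 1421009_at (unadjusted p = 0.0129, adjusted p = 0.488). Their interactions within replicate 1 were not computed, so the positive value is given for a single probe set.

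ISG15 is joined to proteins by the E1 enzyme UBA7, the E2 enzyme UBE2L6 and ligases that include HERC6 in mice and, in human cells, TRIM25. Of these 4 genes, 1 was called higher by treatment in aly (Herc6, 2.21 ± 0.39, adjusted p = 0.0192) and 3 in WT. Over all genes, 0.453% were called higher in aly and 4.95% in WT. Ube2l6 read 178.7, 312.6 and 135.3 on treated aly arrays and 814.9, 469.7 and 790.8 on treated WT arrays, against 59.0, 70.5 and 51.7 on untreated aly and 18.2, 18.8 and 25.7 on untreated WT arrays. All groups of Ube2l6 were separate, and its treatment difference was 1.49 ± 0.37 in aly (adjusted p = 0.116) and 4.23 ± 0.37 in WT (adjusted p = 4.18e-06). The WT differences of Herc6 (3.39 ± 0.39, adjusted p = 3.93e-05) and Uba7 (2.48 ± 0.38, adjusted p = 0.000540) also passed, and that of Trim25 did not (0.94 ± 0.38, adjusted p = 0.145). The same 3 genes were called lower in treated aly than in treated WT DCs, by 1.58 to 1.69 log2 units in size, where 2.64% of all genes were called lower. The interaction of Ube2l6 was -2.74 ± 0.53 (adjusted p = 0.0544). No gene of the list passed the interaction test (0.153% of all genes called lower). Once treated aly replicate 1 was left out, 1 did, where 0.639% of all genes were called lower.

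Upstream, treatment raised 2 of 12 measured relay genes in aly, Irf7 and Socs3, and 8 in WT, and 7 read lower in treated aly than in treated WT DCs by the test. Over all genes the shares called were 0.453%, 4.95% and 2.64% in the same order. Irf7, the factor that amplifies interferon production, read 1901, 1081 and 2127 on treated aly arrays and 7769, 6058 and 9217 on treated WT arrays, against 666.1, 348.9 and 299.5 on untreated aly and 442.2, 411.8 and 269.3 on untreated WT arrays. It rose in both genotypes, by 1.95 ± 0.40 in aly (adjusted p = 0.0399) and 4.31 ± 0.40 in WT (adjusted p = 6.27e-06), and differed by -2.20 ± 0.40 between treated aly and treated WT DCs (adjusted p = 0.00738). The others called in WT were Stat2, the kinase genes Jak1 and Tyk2, Irf1, Irf5 and the feedback inhibitor gene Socs1, and those lower in treated aly DCs were Irf7, Socs1, Jak1, Stat2, Tyk2, Irf5 and Irf9. Stat2 had a difference of 0.86 ± 0.45 in aly (adjusted p = 0.414) and rose by 2.73 ± 0.45 in WT (adjusted p = 0.000985). Socs3, a feedback inhibitor of cytokine receptors, rose by 3.43 ± 0.46 in aly (adjusted p = 0.00245) and 4.30 ± 0.46 in WT (adjusted p = 2.17e-05). The median treatment difference of the relay list was 0.15 in aly and 1.78 in WT. Its counts were 1 higher in aly, 8 higher in WT and 6 lower in treated aly once treated aly replicate 1 was left out. Of all genes, 0.366% were then called higher in aly and 2.98% lower in treated aly. In WT, 2843 of all 15019 genes were then called in either direction, and the share called higher alone was not counted.

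Among 11 measured interferon ligands and receptors, treatment raised only Ifng by the test, and only in WT, where 4.95% of all genes were called higher. Ifng, which encodes interferon gamma, read 1286, 149 and 180 on treated aly arrays and 6302, 2233 and 641 on treated WT arrays, against 5.3, 0.8 and 39.0 on untreated aly and 16.2, 4.5 and 2.5 on untreated WT arrays. The natural killer cell marker Gzma read 264.1, 88.2 and 211.3 on the same treated aly arrays and 1349, 483.7 and 84.1 on the treated WT arrays, in the order of Ifng on WT arrays, and its part was not tested. Treated aly and treated WT arrays of Ifng overlapped, with differences from untreated of 3.69 ± 0.79 in aly (adjusted p = 0.0514) and 6.51 ± 0.79 in WT (adjusted p = 6.51e-05). Treated aly against treated WT gave -2.60 ± 0.79 (adjusted p = 0.0661). Ifnb1, which encodes interferon beta, read 117.9, 30.4 and 31.1 on treated aly arrays and 12.6, 19.7 and 27.4 on treated WT arrays, against 8.5, 22.9 and 50.6 on untreated aly and 34.9, 24.7 and 32.8 on untreated WT arrays. All but the first of these were at 50.6 or below, where the medians of all probe sets per array ran from 21.5 to 53.4, so a change at low levels could not be judged. Its treatment difference was 0.74 ± 0.46 in aly (adjusted p = 0.487) and -0.40 ± 0.46 in WT (adjusted p = 0.696). Ifnar1 had 0.01 ± 0.41 in aly and -0.09 ± 0.41 in WT, and Ifnar2 had -0.28 ± 0.42 in aly and -0.63 ± 0.42 in WT, without passing the test. With treated aly replicate 1 left out, the list had 2 genes called higher and 1 lower in WT, and 1 called lower in treated aly than in treated WT DCs. Of all 15019 genes, 2843 were then called in either direction in WT, and 2.98% were called lower in treated aly. The WT share of each direction was not counted, so the WT calls of this list are a description only.

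Of the other interferon-stimulated genes, 4 of 43 measured were called higher by treatment in aly, 33 in WT and 23 called lower in treated aly than in treated WT DCs. Over all genes the shares called were 0.453%, 4.95% and 2.64% in the same order. The median treatment difference of the 43 genes was 1.06 in aly and 2.29 in WT. These medians were smaller than the 1.89 and 3.51 of the 9 genes, a difference that was not tested. Gbp2, a guanylate-binding protein gene, read 1955, 1373 and 2564 on treated aly arrays and 11814, 11529 and 12588 on treated WT arrays, against 527.1, 353.5 and 967.4 on untreated aly and 218.1, 206.1 and 226.9 on untreated WT arrays. Its groups did not overlap, and its interaction of -3.97 ± 0.55 passed the test (adjusted p = 0.0105), as did that of Pml (-3.32 ± 0.61, adjusted p = 0.0464), which was chosen after its values were seen. Oasl1 rose by 3.61 ± 0.56 in aly (adjusted p = 0.00866) and 6.19 ± 0.56 in WT (adjusted p = 4.48e-06). Cxcl10, a chemokine gene, rose by 3.21 ± 0.52 in aly (adjusted p = 0.0139) and 5.74 ± 0.52 in WT (adjusted p = 4.80e-06), and Oas2 by 1.92 ± 0.40 in aly (adjusted p = 0.0399) and 3.73 ± 0.40 in WT (adjusted p = 2.17e-05). Oasl2 was the fourth gene called in aly. Without treated aly replicate 1 the counts were 3 in aly, 40 in WT and 27 lower in treated aly, with 8 in place of 2 called lower in the interaction. Of all genes, 0.366% were then called higher in aly and 2.98% lower in treated aly. The share called lower in the interaction was 0.639% in place of 0.153%. In WT, 2843 of all 15019 genes were then called in either direction, and the share called higher alone was not counted.

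**Figure D5:**
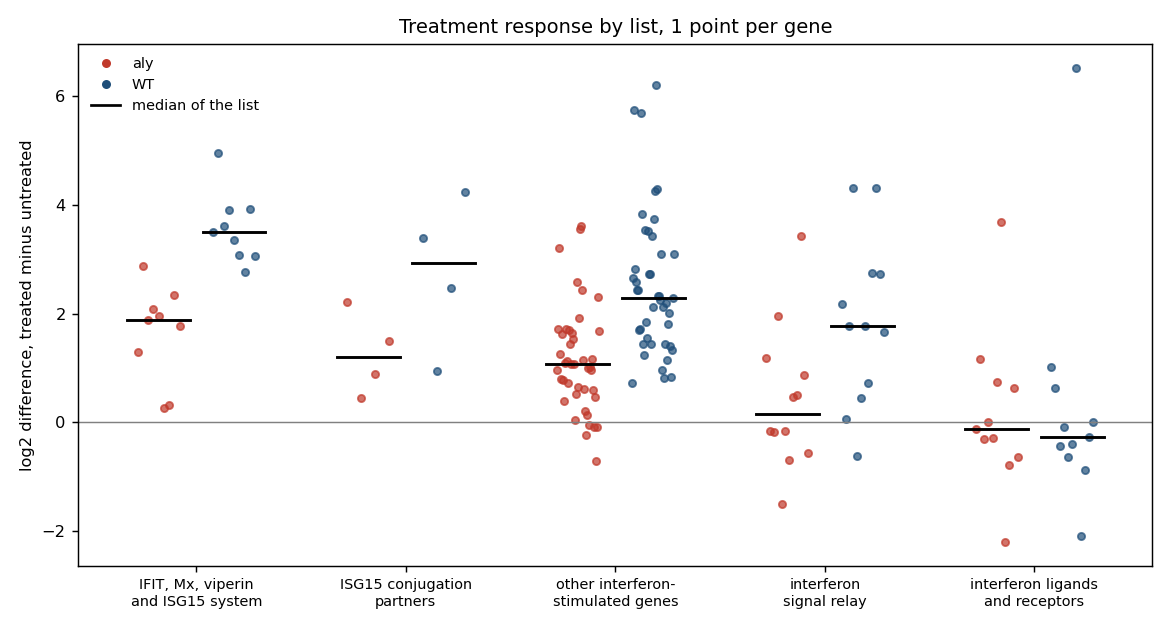
Treatment difference (log2, treated minus untreated) of each measured gene in aly and WT DCs for the 9 genes and the 4 other lists, 1 point per gene with a line at each list's median. The medians are 1.89 in aly and 3.51 in WT for the 9 genes, and 1.06 in aly and 2.29 in WT for the other interferon-stimulated genes.

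Over the 12 arrays the 9 genes moved together to different degrees, as a description over arrays that share treatment and scaling. Pearson's r of log2 values ran from 0.297 for Mx1 with Rsad2 to 0.986 for Ifit1 with Ifit3, and the Mx1 and Rsad2 pair reached 0.620 without treated aly replicate 1. The genes outside the set whose log2 values were most like the standardised mean of the 9 were Slamf1 (r = 0.985), Cxcr5 (r = 0.983), Upp1 (r = 0.982), Dusp2 (r = 0.980) and Oasl2 (r = 0.979), over 12 arrays. Slamf1, a surface receptor of lymphocytes and DCs, had a difference of 1.94 ± 0.46 in aly (adjusted p = 0.0842) and rose by 4.74 ± 0.46 in WT (adjusted p = 8.12e-06).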

How the data were processed

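Affymetrix arrays of total RNA from 12 pools of splenic DCs were analysed. The deposited table holds 1 intensity per probe set on a linear scale for 45101 probe sets. Its 2% trimmed mean was 150.001 as an average over the 12 arrays. Scaling of the arrays to a common target would give such a value, but single arrays were not compared. Software and background step were not stated by the labels or the table's header. Per the labels' protocols, RNA was isolated with Qiagen RNeasy and amplified before labelling with a second in vitro transcription, which can shorten transcripts towards the 3' end. Arrays carry no depth, and their number limits the precision.

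Probe sets with 1 symbol (34958 of 45101) were kept where they exceeded the 40th percentile of the array on at least 3 arrays, and a gene took its probe set of highest mean. This gave 15019 genes. Values were used as deposited, without further normalization, as log2(intensity + 16). The offset of 16 understates fold changes of dim genes. limma 3.58.1 in R 4.3.3 was fitted to all 12 arrays with 1 mean per group (8 residual degrees of freedom), with Benjamini-Hochberg adjustment over all genes of each of 5 contrasts. All p-values of genes are from this limma fit. The 5 contrasts share groups and so are not independent. Per the series' design text, the experiment was done in triplicate with mice pooled, so the p-values measure the spread between pools and not between single mice. The procedure was tested on simulated data.

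The naming rule covered all 10 genes and any gene of the lists of ISG15 conjugation partners, interferon ligands and receptors and signal relay. Of the other interferon-stimulated genes it covered the 4 with the smallest p in WT treatment. The 5 genes most like the set were those of highest Pearson correlation with its standardised mean. The members and lists were chosen with earlier results of these data known. Alternatives covered offset, filter, scaling, choice of probe set, samples fitted, array weights, spike-in set and each array left out.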

Additional observations from a re-analysis of the deposited data

How the results depend on the processing

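The 9 treatment calls in WT held in each alternative setting and with each array left out. Of the 1206 alternative values of single genes and contrasts, 1109 kept direction and side of the threshold, 33 lost the call, 43 gained it and 21 changed sign. Many settings cannot change a difference, such as leaving out an array of a group not compared. The 1109 are therefore not a count of independent checks of direction. The counts of genes called are given as treatment in aly, aly against WT among treated, aly against WT among untreated, and interaction, and stood at 1, 6, 0 and 0. Over all genes, the calls in either direction were 73, 807, 83 and 23. An offset of 1 gave 0 in aly and 3 among treated (11 and 229 over all genes). Fits of the compared groups alone gave 0 in aly, 1 among treated and 1 among untreated (6, 27 and 393 over all genes). Replicates 2 and 3 alone gave 1 among untreated (231 over all genes), with a median treatment difference in aly of 1.39. Array weights gave 3 in aly, 1 among untreated and 7 in the interaction (164, 617 and 360 over all genes), with medians of 1.38 in aly and -2.44 in the interaction. The replicate block gave 1 in the interaction (30 over all genes) and 6 among treated (1108 over all genes). Deviations of same-numbered arrays from their group means correlated by 0.051 to 0.303, not all above 0.1, and no label says that a number marks a shared batch. An array correlated best with its own number in 21 of 24 comparisons, a hint from the data at pairing. The replicate block without treated aly replicate 1, chosen after seeing the data, gave 0 in aly, 1 among untreated and 4 in the interaction (52, 537 and 95 over all genes), with medians of 1.44 and -2.47. Leaving out each array gave 0 to 4 calls in aly, 2 to 8 among treated, 0 to 1 among untreated and 0 to 3 in the interaction, with 13 to 102, 81 to 1544, 0 to 396 and 1 to 113 over all genes. Medians then ran from 1.496 to 2.48 in aly, -2.28 to -1.67 among treated and -2.49 to -1.40 in the interaction. The lowest count among treated came without treated WT replicate 3, and the highest count in aly without treated aly replicate 2.

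Most changes of sign concerned small differences. Among treated, Rsad2 was -0.26 under median centring, -0.58 under quantile normalization, -0.83 as the mean of its probe sets, -0.87 in replicates 2 and 3, -0.70 with array weights and -0.97 with the block and without treated aly replicate 1, and -0.94 to 0.74 with each array left out. Among untreated, Ifit3 was -0.12 under median centring, -0.26 in replicates 2 and 3 and -0.13 to 0.43 with each array left out. Cmpk2 was 0.40 as the mean of its probe sets, 0.046 in replicates 2 and 3 and -0.45 to 0.18 with each array left out, and Ifit1 was -0.15 in replicates 2 and 3. In aly, treatment gave -0.043 for Mx2 with the block and without treated aly replicate 1, and Mx1 -0.26 to 0.59 with each array left out. The cause of these changes was not tested. Under median centring 16.6% of calls between treated groups were higher in aly and under quantile normalization 45.1%, against 50.9% as deposited; for treatment in WT the shares were 68.2% and 59.1% against 51.0%. Array signal limits dim probe sets such as 1422095_a_at, and no presence calls were used.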
